A study of Mus musculus with 2 samples.

Results

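A set of 9 genes that mark microglia or shift with their state was followed through every cell of 2 single-cell libraries: C1qa, C1qb, C1qc, Cx3cr1, Tmem119, P2ry12, Apoe, Ctss and Trem2. They were taken by name as 9 of the 25618 genes listed for both libraries, and all 9 were detected in both. The tissue, microdissected from CD-1 mice aged 7 to 8 weeks, was the arcuate nucleus with the median eminence, at the base of the hypothalamus. One group of animals was Irx5-/- (here Irx5KO), lacking the homeobox transcription factor Irx5, and the other was wild type (WT). The Irx5KO library came from a pool of 6 mice and the WT library from a pool of 7 mice, so each genotype is 1 sample and animals within a pool cannot be told apart. Live cells were sorted and captured in droplets (Drop-seq), where the 3' ends of transcripts are counted by unique molecular identifiers (UMIs). The comparison asks how cells of this region, here its microglia, differ between the genotypes.

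Microglia are the resident macrophages of the brain. C1qa, C1qb and C1qc encode the A, B and C chains of C1q, the recognition molecule that starts the classical complement cascade and tags synapses and debris for removal. Cx3cr1 is the receptor for the neuronal chemokine fractalkine, P2ry12 is a receptor for extracellular ADP that draws microglial processes towards injury, and Trem2 is a lipid-sensing receptor that signals through Tyrobp. Tmem119 is a transmembrane protein used to tell microglia from other macrophages. Ctss is a lysosomal cysteine protease, and Apoe is a lipid-carrying apolipoprotein that astrocytes make in quantity. In mouse models of neurodegeneration, microglia near plaques lower Cx3cr1, P2ry12 and Tmem119 and raise Apoe and several cathepsins.

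After filtering, the Irx5KO library held 1949 cells with 587 to 14342 UMIs and the WT library 1841 cells with 587 to 17968 UMIs. Median depths were 1692 UMIs in Irx5KO and 1621 UMIs in WT. Irx5 itself had 0 UMIs in the Irx5KO library and 13 UMIs in the WT library. No Irx5 UMI was in a microglia-like cell of either library, where 3 counts would be 41.0 CPM (UMIs of a gene per 1000000 UMIs of the cells) in Irx5KO and 44.7 CPM in WT. The libraries shared 1 barcode sequence. Because each genotype is 1 library, no difference between them has a replicate check, and no test between genotypes was made. All 95% intervals cover counting error only.

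Cells were clustered without the 9 genes, so that none of them could define the class in which it is described. A single myeloid cluster formed, with 66 Irx5KO and 56 WT cells, and it split into 3 sub-clusters named here by their leading gene. The sub-clusters led by Csf1r (37 Irx5KO and 44 WT cells) and by Lyz2 (19 Irx5KO and 6 WT cells) carried microglial markers and together form the microglia-like class. It held 56 Irx5KO cells, 2.87% of the library (interval 2.18 to 3.72%), and 50 WT cells, 2.72% (2.02 to 3.57%). All 11 microglial markers in both tables, none of them among the 9 genes, had UMIs in both libraries, with a summed level of 21336 CPM in Irx5KO and 25606 CPM in WT, against 69.9 CPM and 91.2 CPM in the cells outside the myeloid cluster. The third sub-cluster, led by Cd74 (10 Irx5KO and 6 WT cells), had the MHC class II genes Cd74, H2-Aa and H2-Ab1 at its head and was kept apart. Cd74 was also among the leading genes of the Lyz2-led sub-cluster. There dendritic cell markers, which include these genes, summed to 2062 CPM in Irx5KO and 1998 CPM in WT. The Csf1r-led cells had 617 CPM and 140 CPM, and the Cd74-led cells 39692 CPM and 55282 CPM. Of the Lyz2-led cells, 10 of 19 in Irx5KO and 3 of 6 in WT held 2 or more such UMIs. No macrophage-like group formed. Of 7 border macrophage markers in both tables, 6 had UMIs in microglia-like cells of each library, with Lyve1 at 0, and they summed to 752 CPM in Irx5KO and 403 CPM in WT. Most of that lay in the Lyz2-led sub-cluster, with 1794 CPM in Irx5KO and 2598 CPM in WT, against 170 CPM and 17.5 CPM in the Csf1r-led sub-cluster. Few cells carried it: 4 of 19 Irx5KO and 1 of 6 WT Lyz2-led cells held 2 or more such UMIs.

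Most UMIs of 8 of the 9 genes lay in myeloid cells, and most Apoe UMIs did not. Summed over the 8 genes, 96.3% of UMIs in Irx5KO and 91.1% in WT lay in the myeloid cluster, with Tmem119 the lowest, at 73.2% in Irx5KO and 72.9% in WT. C1qa was 1630-fold higher in microglia-like cells than in cells outside the cluster in Irx5KO (interval 991 to 2880) and 495-fold in WT (340 to 743). Ctss, with 1949-fold in Irx5KO and 826-fold in WT, and Cx3cr1, with 2951-fold and 717-fold, were as sharply placed. For all 8 genes the level outside the cluster was between 1.04 and 5.60 CPM in Irx5KO and between 3.35 and 9.79 CPM in WT.

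Part of the WT signal outside the cluster came from few cells. Of the 179 UMIs of the 8 genes in non-myeloid WT cells, 64 (35.8%) were in 5 cells that held 3 or more of the genes, 1 each in the neuron-like, tanycyte-like, oligodendrocyte-like, endothelial-like and pars tuberalis-like classes. A single endothelial-like WT cell carried 40 of the 42 UMIs found in that class. In Irx5KO the non-myeloid cells held 105 UMIs of the 8 genes and none held 3 or more of them. In neuron-like cells, which should lack these genes, between 0.112% and 1.56% of Irx5KO cells and between 0% and 1.75% of WT cells had a UMI of a given gene, at median depths of 2418.5 and 2129 UMIs. Those shares are the background against which detection in microglia is read.

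**Figure D1:**
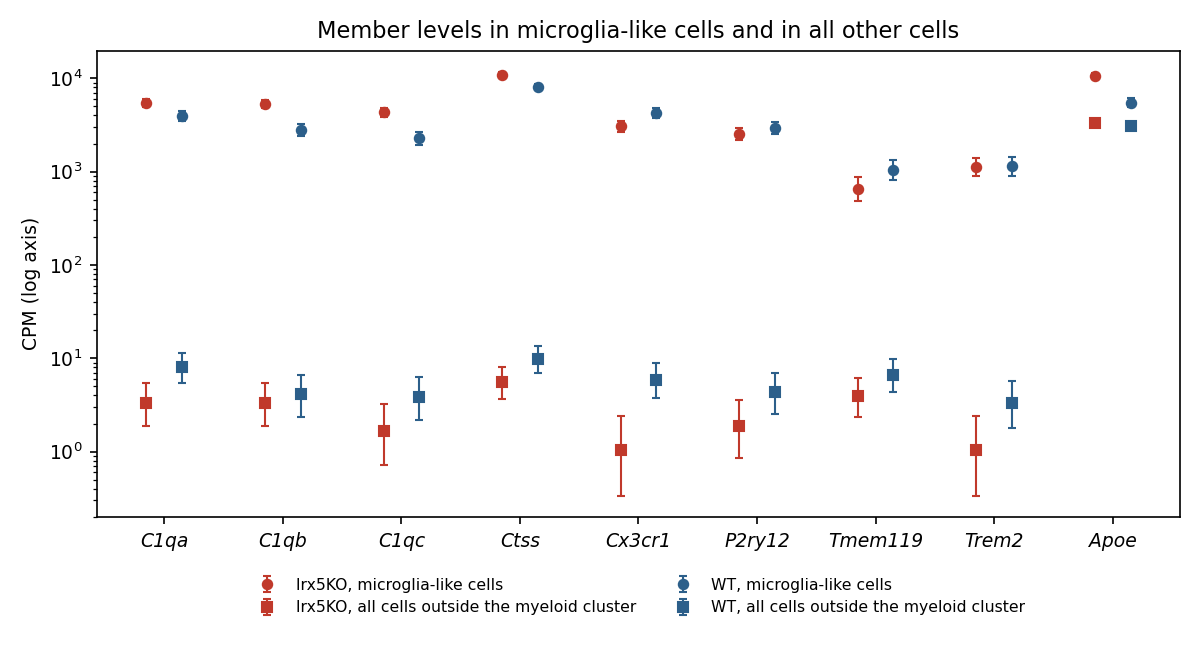
Level of each gene in CPM on a log axis, with exact 95% Poisson intervals (counting error), for microglia-like cells (circles) and all cells outside the myeloid cluster (squares) in the Irx5KO library (red, left of each pair) and the WT library (blue). Apart from Apoe, the genes sit at 656 CPM or more in microglia-like cells and at 9.79 CPM or less elsewhere, while Apoe is at 3117 CPM or more in both.

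Tmem119 was the least restricted of the 8 genes. Its level in microglia-like cells was 166-fold that of other cells in Irx5KO and 156-fold in WT. Its UMIs outside the myeloid cluster were mainly in cells resembling vascular and leptomeningeal cells (VLMC), fibroblast-like cells of the brain's coverings and vessels. There it had 17 UMIs in 16 of 142 Irx5KO cells (91.9 CPM, interval 53.5 to 147) and 19 UMIs in 14 of 129 WT cells (112 CPM, 67.2 to 174). Cx3cr1 and P2ry12 had 0 UMIs in VLMC-like cells of both libraries. C1qa had 0 UMIs in Irx5KO and 2 UMIs in WT VLMC-like cells, C1qb 1 UMI in each library, and C1qc 2 UMIs in Irx5KO and 0 UMIs in WT. The part of microglial RNA in the Tmem119 counts of these cells was not tested.

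Apoe was high in several glial classes and was not confined to glia. Only 7.00% of its UMIs in Irx5KO and 3.65% in WT were in the myeloid cluster. Its highest level outside it was in astrocyte-like cells, at 20156 CPM in Irx5KO and 16747 CPM in WT, followed by tanycyte-like cells, the glia lining the third ventricle, at 14239 CPM and 10985 CPM. Ependymal-like cells had 11922 CPM in Irx5KO and 8981 CPM in WT. Microglia-like cells, at 10525 CPM in Irx5KO and 5503 CPM in WT, came next in order. Epithelial-like cells (6847 CPM in Irx5KO and 5251 CPM in WT) and OPC-like cells (oligodendrocyte precursors, 4583 CPM and 4870 CPM) lay below. In WT the intervals of these classes overlapped that of microglia-like cells, and in Irx5KO they did not. Neuron-like cells were lowest, at 154 CPM in Irx5KO and 147 CPM in WT. Apoe accounted for 99.4% of the 9 genes' UMIs outside the myeloid cluster in Irx5KO and 98.5% in WT, against 24.0% and 17.2% in microglia-like cells.

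**Figure D2:**
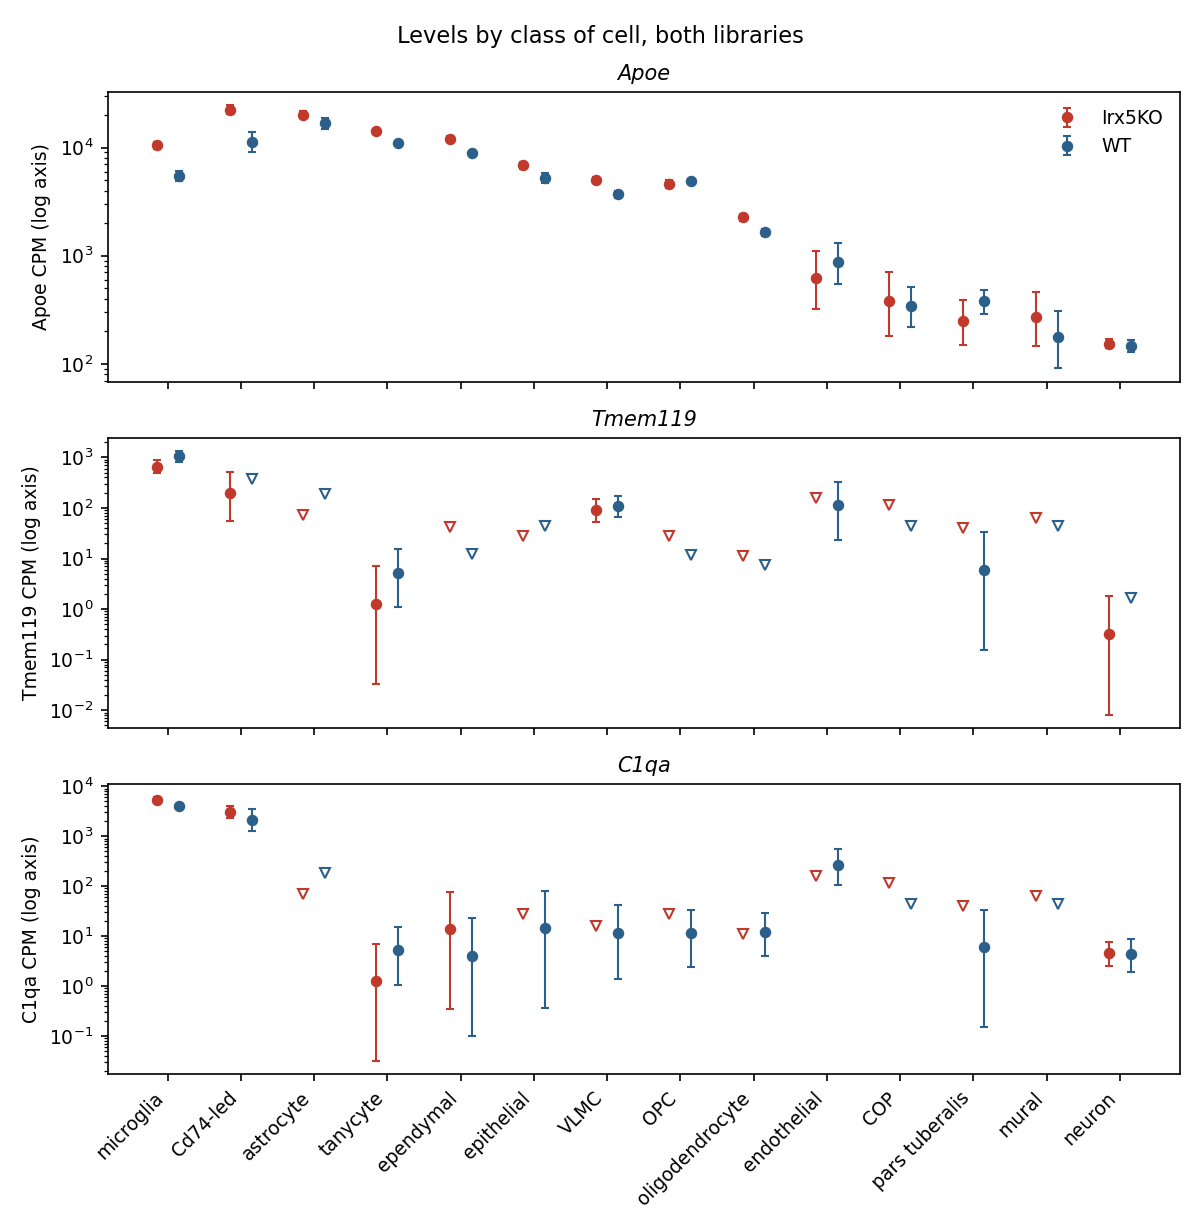
Levels of Apoe, Tmem119 and C1qa in CPM on log axes in each class of cells, with exact 95% Poisson intervals, Irx5KO (red) left of WT (blue); open triangles mark 0 UMIs and stand at the level of 3 counts. Apoe spans all classes, and outside the myeloid cluster it peaks in astrocyte-like cells. In Irx5KO the Cd74-led value is higher still, at 22465 CPM against 20156 CPM in astrocyte-like cells. Tmem119 appears mainly in microglia-like and VLMC-like cells, and the WT endothelial-like value of C1qa rests on 7 UMIs of 1 cell.

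Among single microglia-like cells, detection was near complete for the abundant genes. A median of 7 of the 8 genes was detected per cell in both libraries, and all 8 in 12 of 56 Irx5KO and 17 of 50 WT cells. C1qa was detected in 100% of Irx5KO and 96% of WT cells, and Ctss in 100% and 98%. Apoe, abundant as a sum, was detected in 67.9% of Irx5KO and 56% of WT cells. Of the other 8 genes Tmem119 was detected in the fewest cells, 50% in Irx5KO and 58% in WT. After thinning each cell to 1000 UMIs, which left 34 Irx5KO and 25 WT cells and dropped 22 and 25, Tmem119 was in 32.4% of Irx5KO and 48% of WT cells. At that depth Cx3cr1 was in 82.4% of Irx5KO and 92% of WT cells, and P2ry12 in 79.4% and 80%. The exact intervals of these shares overlap between libraries.

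The Lyz2-led and Csf1r-led sub-clusters differed in Apoe, Cx3cr1 and P2ry12 in the same direction in both libraries, and these genes took no part in forming them. Apoe in the Lyz2-led sub-cluster was 6.01-fold that of the Csf1r-led one in Irx5KO (interval 5.07 to 7.15) and 8.71-fold in WT (7.03 to 10.8), where 3 of 6 cells held all of its UMIs. Cx3cr1 was 2.22-fold lower there in Irx5KO (1.59 to 3.15) and 2.0-fold lower in WT (1.30 to 3.21). P2ry12 was 1.93-fold lower in Irx5KO (1.36 to 2.78) and 2.50-fold lower in WT (1.42 to 4.78). Tmem119 was 1.88-fold lower in Irx5KO (0.937 to 4.08) and 3.92-fold lower in WT (1.28 to 19.5). Trem2 was 1.98-fold lower in Irx5KO (1.16 to 3.56) and 1.33-fold lower in WT (0.659 to 3.02). C1qa was 1.36-fold that of the Csf1r-led cells in Irx5KO (1.11 to 1.67) and 1.33-fold in WT (0.954 to 1.81), and Ctss was 1.46-fold in Irx5KO (1.26 to 1.68) and 1.07-fold in WT (0.844 to 1.36). The intervals of C1qb and C1qc held 1 in both libraries, at 1.16-fold (0.940 to 1.43) and 1.15-fold (0.907 to 1.44) in Irx5KO and 1.27-fold (0.852 to 1.86) and 1.06-fold (0.656 to 1.65) in WT. The Cd74-led cells held C1q and Ctss but little of the receptors: Cx3cr1 was 15.1-fold lower than in the Csf1r-led cells in Irx5KO (6.36 to 47.2) and 12.1-fold lower in WT (4.10 to 59.1). P2ry12 had 4 UMIs in the 10 Irx5KO and 0 UMIs in the 6 WT cells of that sub-cluster, and Trem2 had 6 and 0. Their Apoe level was 22465 CPM in Irx5KO and 11259 CPM in WT. Within each library these are comparisons between cells of 1 pool.

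Across microglia-like cells, Apoe and P2ry12 in log-scaled values per cell had Pearson r of -0.54 in Irx5KO (56 cells) and -0.28 in WT (50 cells). C1qa and C1qb had r of 0.40 and 0.13, and Tmem119 and P2ry12 had 0.24 and 0.54. Not all pairs kept their sign between the libraries. C1qa and Apoe had 0.43 in Irx5KO and -0.28 in WT, and Apoe and Ctss had 0.20 and -0.24. These describe sparse counts of cells that share a library, a scaling to depth and a split into sub-clusters.

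**Figure D3:**
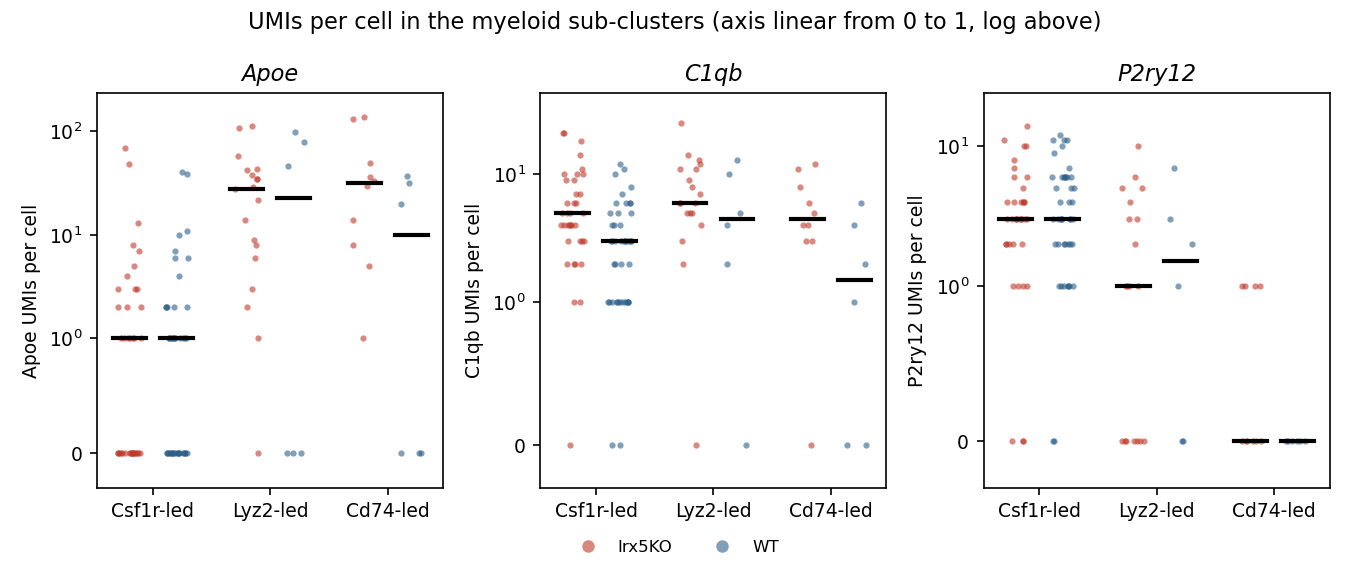
UMIs per cell of Apoe, C1qb and P2ry12 in the 3 myeloid sub-clusters, Irx5KO (red) left of WT (blue), on axes that are linear from 0 to 1 and logarithmic above; each point is 1 cell, bars are medians, and points are shifted sideways at random. The median Apoe count is 1 UMI in Csf1r-led cells of each library, and 28 UMIs in Irx5KO and 23 UMIs in WT Lyz2-led cells, while P2ry12 is at 0 or 1 UMI in the Cd74-led cells.

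The C1q chains were higher in Irx5KO microglia-like cells. C1qb had 387 UMIs (5290 CPM) in Irx5KO and 186 UMIs (2774 CPM) in WT, a ratio of 1.91 (interval 1.60 to 2.28). C1qc had 318 UMIs (4347 CPM) in Irx5KO and 153 UMIs (2282 CPM) in WT, a ratio of 1.90 (1.57 to 2.33). C1qa, the third chain, had 396 UMIs (5413 CPM) in Irx5KO and 265 UMIs (3952 CPM) in WT, and its ratio of 1.37 (1.17 to 1.61) stayed under 1.5-fold, the size from which a gene is counted here as apart. All 3 ratios were above 1 but they were unequal. C1qa was 36.0% of C1q UMIs in Irx5KO (33.1 to 38.9%) and 43.9% in WT (39.9 to 47.9%). In the Csf1r-led sub-cluster alone it was 34.4% in Irx5KO (30.8 to 38.2%) and 43.3% in WT (38.9 to 47.8%). In the Lyz2-led cells it was 38.3% in Irx5KO (33.7 to 42.9%) and 46.3% in WT (36.7 to 56.2%), and there the intervals overlapped, unlike in the other two groupings. In the Csf1r-led cells the ratios were 1.88 for C1qb (1.52 to 2.32), 1.83 for C1qc (1.45 to 2.30) and 1.27 for C1qa. C1qb and C1qc were also higher in the Lyz2-led cells, at 1.71 (1.17 to 2.56) and 1.97 (1.27 to 3.20). The WT side there was 34 and 24 UMIs in 6 cells. C1qa was at 1.31 in those cells, with an interval (0.949 to 1.83) that includes no difference. Together the chains made up 45.1% of the UMIs of the 8 genes other than Apoe in Irx5KO microglia-like cells and 34.0% in WT.

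The C1q genes lie side by side on chromosome 4 of the mm10 build, all on the minus strand, in the order C1qb (136880129 to 136886187), C1qc (136889804 to 136893065) and C1qa (136895917 to 136898803), each with 3 exons in the GENCODE annotation. The whole cluster spans 18675 bases. Since C1qb and C1qc had nearly the same ratio, the 250 bases before their RefSeq starts are shown, with those of P2ry12, a gene whose level was not higher in Irx5KO, for contrast. The sequences are from RefSeq (GRCm38.p6), 5' to 3' on the strand of the gene. Capitals mark AGGAAGT or its reverse complement ACTTCCT, the core that ETS-family factors such as the myeloid regulator PU.1 can bind.
C1qb: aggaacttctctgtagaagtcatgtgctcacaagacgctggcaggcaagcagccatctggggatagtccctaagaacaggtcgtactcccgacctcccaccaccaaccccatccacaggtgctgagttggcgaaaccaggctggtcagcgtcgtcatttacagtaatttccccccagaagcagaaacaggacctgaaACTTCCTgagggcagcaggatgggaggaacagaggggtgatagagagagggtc
C1qc: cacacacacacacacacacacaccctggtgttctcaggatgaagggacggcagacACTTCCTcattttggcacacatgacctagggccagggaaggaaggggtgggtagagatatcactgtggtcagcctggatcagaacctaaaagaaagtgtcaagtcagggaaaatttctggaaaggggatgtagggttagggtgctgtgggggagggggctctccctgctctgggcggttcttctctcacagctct
P2ry12: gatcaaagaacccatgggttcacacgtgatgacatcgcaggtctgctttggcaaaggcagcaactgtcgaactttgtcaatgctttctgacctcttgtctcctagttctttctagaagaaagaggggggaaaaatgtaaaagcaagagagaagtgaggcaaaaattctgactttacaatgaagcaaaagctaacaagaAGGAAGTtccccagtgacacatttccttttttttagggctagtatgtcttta
The windows are chr4:136886201-136886450 for C1qb, chr4:136892915-136893164 for C1qc and chr3:59262986-59263235 for P2ry12, all on the minus strand. The RefSeq start of C1qc lies inside the GENCODE span given above, so part of its window falls within that span. Of the 7 genes with a promoter entry, these 3 held the 7 letters on either strand and Apoe, Ctss, Cx3cr1 and Trem2 did not. The letters were in 2100 of 27025 promoter windows of the same length (7.77%). A match is a run of letters in a window. It was present for C1qb and C1qc, which were higher in Irx5KO, and for P2ry12, which was not. It was absent for Apoe, which was higher. The part of the letters in the ratios was not tested.

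The receptors and Tmem119 went the other way or showed no difference. Cx3cr1 had 224 UMIs (3062 CPM) in Irx5KO and 285 UMIs (4250 CPM) in WT, 1.39-fold lower in Irx5KO (interval 1.16 to 1.66). Tmem119 had 48 UMIs (656 CPM) in Irx5KO and 70 UMIs (1044 CPM) in WT, 1.59-fold lower (1.09 to 2.35). P2ry12 had 187 UMIs (2556 CPM) in Irx5KO and 198 UMIs (2953 CPM) in WT, a ratio of 0.866 whose interval (0.705 to 1.06) includes no difference. Trem2 had 82 UMIs (1121 CPM) in Irx5KO and 77 UMIs (1148 CPM) in WT, a ratio of 0.976 (0.706 to 1.35), and a difference smaller than these bounds was not detectable at this depth. In the Csf1r-led sub-cluster the ratios of Cx3cr1 (0.830, 0.682 to 1.01), Tmem119 (0.671, 0.436 to 1.02) and P2ry12 (0.952, 0.761 to 1.19) were nearer to 1. Trem2 was at 1.14 (0.800 to 1.63) there. These intervals all include no difference, and no receptor was 1.5-fold apart. In the Lyz2-led cells Cx3cr1 was at 0.748 (0.443 to 1.29) and Trem2 at 0.764 (0.326 to 1.93). Tmem119 was at 1.40 (0.370 to 7.82) and P2ry12 at 1.23 (0.650 to 2.51) in those cells, and these intervals include no difference too. Cx3cr1 spans positions 119901616 to 120069879 of chromosome 9, where the annotation overlaps 9 other genes. Its 3' end shares 12 of 902 sequences of 50 bases with other genes, while the other 8 genes share none. P2ry12 overlaps Med12l on the opposite strand, and Ctss overlaps the pseudogene Hmgb1-ps5 on its own strand. Whether the authors' counting used strand is not given in any source here.

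Of the secreted and lysosomal members, Ctss had 799 UMIs (10921 CPM) in Irx5KO and 542 UMIs (8083 CPM) in WT, a ratio of 1.35 (1.21 to 1.51). Apoe had 770 UMIs (10525 CPM) in Irx5KO and 369 UMIs (5503 CPM) in WT, a ratio of 1.91 (1.69 to 2.17). The Apoe difference was not even over the cells. The 5 cells with most Apoe held 51.4% of the UMIs in Irx5KO and 82.1% in WT, and 15 of 56 Irx5KO and 7 of 50 WT cells had at least 10 Apoe UMIs, 26.8% (15.8 to 40.3%) and 14% (5.82 to 26.7%).

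The Apoe ratio was not alike in the sub-clusters, and their shares of the class differed between the libraries. Lyz2-led cells were 33.9% of microglia-like cells in Irx5KO (21.8 to 47.8%) and 12% in WT (4.53 to 24.3%), and they held 77.0% and 60.4% of microglial Apoe UMIs. Within them Apoe was level, at 22640 CPM in Irx5KO and 22280 CPM in WT, a ratio of 1.02 (0.870 to 1.19). Within the Csf1r-led cells it was 3768 CPM in Irx5KO and 2559 CPM in WT, a ratio of 1.47 (1.18 to 1.85), with 82.5% of the Irx5KO and 74.0% of the WT UMIs in 5 cells. The part of the sub-cluster shares in the ratio of the whole class was not tested. When only cells with at least 800 genes were kept, the log2 ratio for microglia-like cells was -0.16. Apoe was also higher in several other Irx5KO classes, by ratios of 1.30 in tanycyte-like (1.26 to 1.34), 1.33 in ependymal-like, 1.37 in VLMC-like and 1.37 in oligodendrocyte-like cells. In neuron-like cells the ratio was 1.05 (0.898 to 1.22), in OPC-like cells 0.941 (0.847 to 1.04), and over all cells outside the myeloid cluster 1.08 (1.05 to 1.10). The neuron-like level was 154 CPM in Irx5KO and 147 CPM in WT, and the tanycyte markers had 0 UMIs in Irx5KO and 7 UMIs in WT microglia-like cells. The part of free Apoe RNA in the ratios was not tested.

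**Figure D4:**
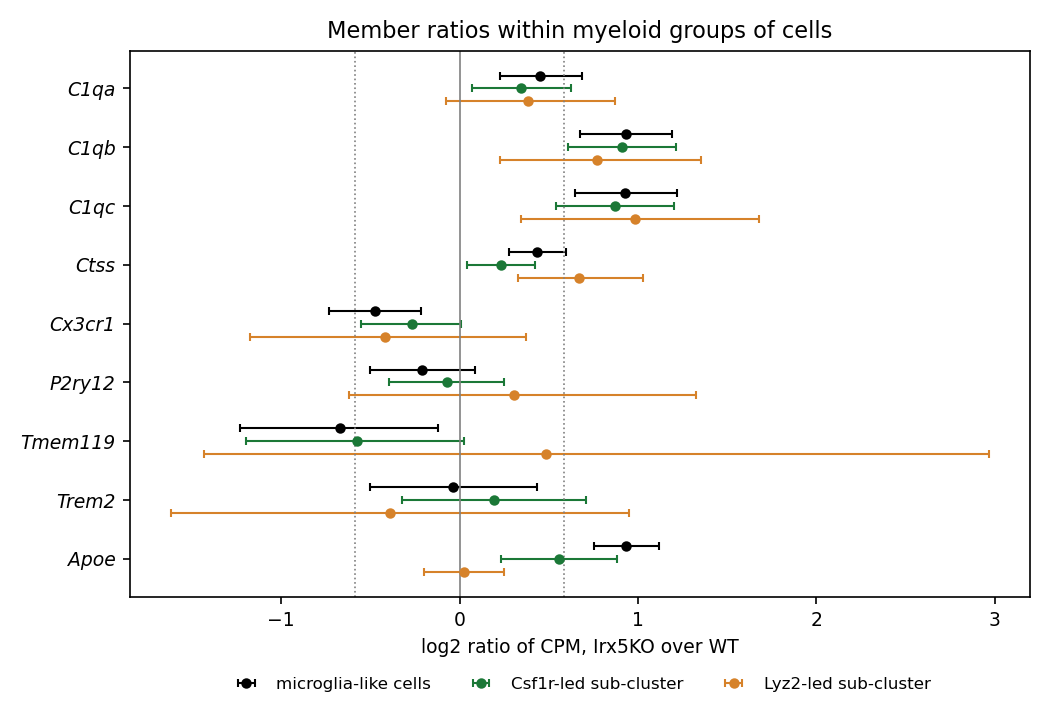
Log2 ratio of CPM, Irx5KO over WT, for each gene in all microglia-like cells (black), the Csf1r-led (green) and the Lyz2-led sub-cluster (orange), with exact 95% intervals of counting error; dotted lines mark 1.5-fold in either direction. C1qb and C1qc lie above the upper line in all 3 groups, and the Apoe ratio is 1.91, 1.47 and 1.02.

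Set against the whole transcriptome of these cells, 338 genes had at least 50 UMIs over both libraries in microglia-like cells. At least 1.5-fold higher in Irx5KO were 49 of them, 14.5%, and at least 1.5-fold lower were 48, 14.2%, or 28.7% apart in either direction. Scaling by the median of gene ratios in place of total UMIs gave 73 higher and 28 lower of the 338, against 49 and 48. That median ran over all genes with a UMI in both libraries and fell on genes with equal UMI counts. It therefore left in the ratios the unequal depth of the class, 73162 UMIs in Irx5KO and 67055 UMIs in WT. Of the 9 genes, 3 were higher (C1qb, C1qc and Apoe) and 1 was lower (Tmem119). Their median log2 ratio was 0.43 beside 0.04 for all 338 genes. In the Csf1r-led sub-cluster 236 genes were measured, 32 of them higher (13.6%) and 36 lower (15.3%). There 2 of the 9 were higher and 0 lower, with a median of 0.23 beside 0.02. The microglia-like cells of the libraries also differed in depth, with a median of 1213.5 UMIs in Irx5KO and 1007 UMIs in WT, and in the median share of mitochondrial UMIs, 0.910% in Irx5KO and 1.37% in WT. The part of these in the ratios was not tested.

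Other genes of the homeostatic programme gave a mixed picture. Of 20 listed genes 17 were measured, 1 higher and 4 lower in Irx5KO, with a median log2 ratio of -0.16. Among all 338 measured genes 14.5% were higher and 14.2% lower, with a median of 0.04. Those lower included P2ry13 and the class markers Gpr34 and Selplg. P2ry13, an ADP receptor related to P2ry12, was 2.41-fold lower in Irx5KO (interval 1.37 to 4.39), with 19 UMIs in Irx5KO and 42 UMIs in WT. Gpr34 and Selplg helped to define the class and their differences are not read. Ltc4s, leukotriene C4 synthase, was the 1 higher, at 2.05 (1.20 to 3.61), and was named after its value was seen. Cst3, the cathepsin inhibitor cystatin C and the transcript with most UMIs on that list, had 69339 CPM in Irx5KO and 84155 CPM in WT, a ratio of 0.824 (0.793 to 0.856).

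Of 23 listed genes of disease-associated or activated microglia, 10 were measured, 3 higher and 1 lower, with a median log2 ratio of 0.46. Over all 338 measured genes, 14.5% were higher and 14.2% lower, with a median of 0.04. Ctsb, the lysosomal protease cathepsin B, had 205 UMIs in Irx5KO and 109 UMIs in WT (ratio 1.72, 1.36 to 2.20). Fth1, the ferritin heavy chain, had 473 UMIs in Irx5KO and 252 UMIs in WT (1.72, 1.47 to 2.01), and Ctsz, cathepsin Z, 81 UMIs in Irx5KO and 49 UMIs in WT (1.52, 1.05 to 2.21). In the Csf1r-led sub-cluster Fth1 was under 1.5-fold, at 1.33 (1.09 to 1.63), while Ctsb was at 1.63 (1.21 to 2.22) and Ctsz at 1.52 (0.982 to 2.36). B2m, the light chain of MHC class I, had a ratio of 1.32 (1.12 to 1.56). The gene of this list that was lower was Cd9, at 0.635. It was named because the count was 1, after its value was seen. Spp1, a secreted protein often used as a marker of that state, had 3 UMIs in Irx5KO and 4 UMIs in WT and was among the 13 genes not measured.

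The ratios of the cathepsin family were mixed. Of 13 listed cathepsins and their partners, 10 were measured, 3 higher and 1 lower, with a median log2 ratio of 0.05. The median over all 338 measured genes was 0.04, with 14.5% higher and 14.2% lower. Ctsd had 312 UMIs in Irx5KO and 214 UMIs in WT (ratio 1.34, 1.12 to 1.60). Ctsh was 1.93-fold lower in Irx5KO (1.21 to 3.12), with 30 UMIs in Irx5KO and 53 UMIs in WT. Cd74, the third of those higher, leads the sub-cluster that was set apart, so its difference is not read. Tyrobp, the adaptor of Trem2 and a marker of the class, was the 1 measured gene of 10 in Trem2 signalling, and Npc2, a lysosomal sterol carrier, the 1 measured of 12 in lipoprotein handling, with a ratio of 1.13 (0.828 to 1.55). Of 8 purinergic and fractalkine genes 3 were measured, 0 higher and 1 lower (P2ry13), and Gnai2, a G protein subunit, had 34 UMIs in each library. Of 10 border macrophage genes only Maf, a transcription factor, was measured, with a ratio of 0.670 (0.467 to 0.955).

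Early response genes had no one direction across the groupings of cells. The shares over all 338 measured genes in microglia-like cells were 14.5% higher and 14.2% lower, with a median log2 ratio of 0.04. Of 19 early response genes that dissociation can induce, 8 were measured in microglia-like cells, 1 higher and 3 lower in Irx5KO, with a median log2 ratio of -0.49. In the Csf1r-led sub-cluster 6 were measured, 1 higher and 1 lower, with a median of -0.04, and the median was 0.21 over all myeloid cells and 0.24 when cells with at least 200 genes were kept. In microglia-like cells Egr1 was 1.88-fold lower (1.19 to 3.0) and Jun 1.52-fold lower (1.07 to 2.17), and Ier5, named after its value was seen, 1.90-fold lower (1.05 to 3.53), while the heat shock gene Hspa1b was 2.03-fold higher (1.37 to 3.06). Hspa1a, its neighbour and near copy, was at 1.03 (0.786 to 1.34), and reads of this pair may be split between them. Nfkbia, the inhibitor of NF-kB, had a ratio of 0.717. In the Csf1r-led cells Jun was at 0.729 (0.477 to 1.10), Nfkbia at 0.949 (0.702 to 1.28) and Hspa1b at 2.55 (1.63 to 4.08). Of 10 cytokine genes 3 were measured, 1 higher and 0 lower. Ccl12, a monocyte-attracting chemokine, had 74 UMIs (1011 CPM) in Irx5KO and 12 UMIs (179 CPM) in WT, a ratio of 5.65 (3.05 to 11.4), the widest gap among the measured genes of the lists. It was higher in both sub-clusters. The Csf1r-led cells had 47 UMIs (1001 CPM) in Irx5KO and 11 UMIs (193 CPM) in WT. The Lyz2-led cells had 27 UMIs (1031 CPM, 679 to 1500) in Irx5KO and 1 UMI (99.9 CPM, 2.53 to 557) in WT. Ccl4 had a ratio of 1.33 (0.824 to 2.17). The part of early response genes in the members' ratios was not tested.

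Over the 14 classes of cells, the genes whose levels ran most like a member's were mostly myeloid ones, from 7274 genes compared and taking the lower Pearson r of the libraries. Fcer1g, an immunoglobulin receptor chain, was first for C1qa (r = 0.99), C1qb (0.97), C1qc (0.98) and Ctss (0.97), with Ly86, a partner of a Toll-like receptor relative, second. Csf1r, the receptor for the growth factor that maintains microglia, was first for Cx3cr1 (0.96), P2ry12 (0.86) and Trem2 (0.87). Tmem119 ran most like Olfml3, a secreted matrix protein (0.90), and Apoe most like Cst3 (0.69) and the lysosomal membrane gene Lamp2 (0.68). Fcer1g, Ly86 and Csf1r are among the markers that named the microglia-like class, so any gene confined to that class would run like them. These are correlations over classes of the same libraries, which share depth and scaling, and describe placement among classes alone.

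Under 15 other ways of processing, C1qb and C1qc remained at least 1.5-fold higher in Irx5KO each time, with log2 ratios of 0.81 to 1.06 and 0.71 to 1.06. C1qa (0.25 to 0.58) and Ctss (0.23 to 0.56) were higher each time without reaching 1.5-fold. The highest values of C1qa, C1qb, C1qc and Ctss came from median-of-ratios scaling, which left the unequal depth of the class in the ratios. Cx3cr1 (-0.64 to -0.27) and P2ry12 (-0.36 to -0.07) were lower each time, Cx3cr1 by 1.5-fold in 4 of 15. Tmem119 (-0.84 to -0.54) passed 1.5-fold in 11 of 15. Trem2 changed sign, between -0.14 and 0.19, and Apoe ran from -0.16 to 1.82.

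**Figure D5:**
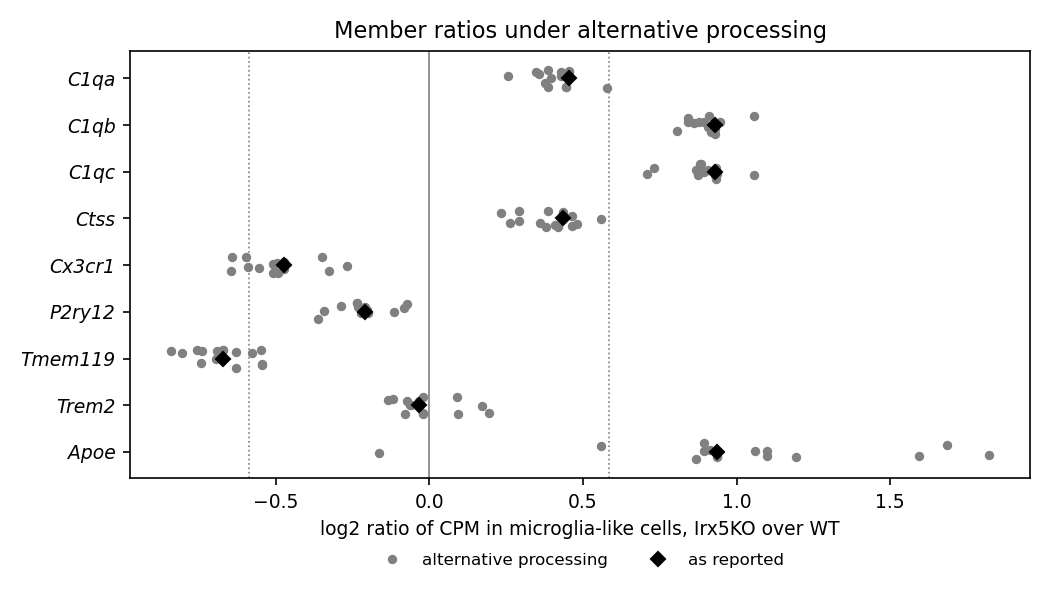
Log2 ratio of CPM in microglia-like cells, Irx5KO over WT, for each gene as reported (black diamond) and under 15 alternatives of filtering, clustering, scaling and class definition (grey points, shifted up or down at random); dotted lines mark 1.5-fold. C1qb and C1qc stay right of the upper line throughout, while Apoe spreads from -0.16 to 1.82.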

How the data were processed

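STAR 2.6.0b, Picard, bcl2fastq, Seurat 3 and the build mm10 are listed, with no role, per the submitters' processing notes. For WT, the authors deposited raw UMI counts (2800 barcodes, 28008 genes). For Irx5KO (2350 barcodes, 26840 genes) and for a merged table (4977 barcodes) they deposited natural log values, whose form is ln(1 + x) with x the UMI count per 10000 UMIs of its barcode. These were inverted: 100% of values came out whole within a relative 1e-06, and 0 UMIs differed between the single and merged tables over the genes they share. Raw counts had been assumed for Irx5KO too when the design was set. The Irx5KO table held no barcode under 212 genes and none over 9.93% in mitochondrial UMIs, a sign of filtering by the authors, and 173 WT barcodes were absent from the merged table.

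Cells were kept from 500 genes upwards and up to 20% mitochondrial UMIs. The Scrublet method at an expected 5% called 23 of 1972 Irx5KO cells (1.17%) and 10 of 1851 WT cells (0.540%), which were removed. The 9 genes were left out, and cells of both libraries were clustered together without batch integration (2000 variable genes, 30 principal components, 15 neighbours, Leiden resolution 1). Clusters were named from marker lists disjoint from the 9 genes, by the mean log2 ratio of CPM plus 10 over the median of clusters and the markers among the 10 leading genes. The myeloid cluster was divided again (10 components, resolution 0.5). This resolution and the scoring rule were chosen after the clusters were seen. UMIs were summed per class and library and given as CPM of the genes shared by both tables, without division by length because each UMI is a 3' end.

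Ratios are Irx5KO over WT with exact conditional binomial 95% intervals, levels have exact Poisson and shares Clopper-Pearson intervals. Apart means at least 1.5-fold, as a matter of size, and is counted over genes reaching 50 UMIs in the 2 libraries together. The calculation of ratios and intervals was run on simulated Poisson counts summed per library. Those counts hold no spread between cells, so the run checks the calculation alone. The 9 genes and the lists were chosen with earlier results of these data known. Some results of the lists are not reported here. Named genes are the 9, the 2 measured genes of each list with most UMIs, up to 3 per list that were apart, and the genes most alike over classes, which needed 100 UMIs in each library. Clustering ran in scanpy 1.11.5 (igraph 0.11.9, anndata 0.12.19), statistics in scipy 1.17.1 and numpy 2.4.6, and plots in matplotlib 3.10.9, under Python 3.11.15.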

Additional observations from a re-analysis of the deposited data

How the results depend on the processing

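Of 502 values under alternatives, 453 stayed within the counting interval of the reported value or, for counts, within 1.5 times of it, 48 moved further and 1 reversed. The reversed value was the Apoe ratio, -0.16 on the log2 scale with at least 800 genes per cell. It was 0.94 as reported, 1.82 with at least 200 genes, and 0.56 in the Csf1r-led sub-cluster alone. The number of the 9 genes at least 1.5-fold lower in Irx5KO, 1 as reported, was 2 with at least 200 genes, with a per-cell marker score and over all myeloid cells. It was 0 when clusters were formed with the 9 genes, with median-of-ratios scaling and in the Csf1r-led sub-cluster. The median log2 ratio of the 9 was 0.17 with at least 800 genes. Measured genes at least 1.5-fold higher numbered 49 as reported, 86 at the lower limit of 200 genes, 25 at the limit of 800 genes, 32 in the Csf1r-led sub-cluster and 81 over all myeloid cells. Median-of-ratios scaling shifted all genes by 0.13 on the log2 scale (factor -0.13), and 28 genes were then lower and 73 higher, against 48 and 49 as reported. The factor is the ratio of a gene with equal UMI counts in the libraries, so this scaling did not correct for the depth of the class. The median of the early response genes was 0.24 with at least 200 genes and 0.21 over all myeloid cells, against -0.49. That of the cytokine genes was 2.38 with the marker score and 2.01 over all myeloid cells, against 0.51. With at least 200 genes, 7.57% of Irx5KO Apoe UMIs and 93.7% of WT UMIs of the other 8 genes were in myeloid cells, and microglia-like cells were 4.38% of WT cells. With at least 800 genes, 5.41% of Irx5KO Apoe UMIs were in myeloid cells. The other 8 genes then had 94.9% in Irx5KO and 83.4% in WT, and microglia-like cells were 1.96% of Irx5KO and 1.40% of WT cells. The cause was not tested. The alternatives that used the Csf1r-led sub-cluster, all myeloid cells or no top cell were chosen after seeing the data.

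No paired analysis was possible because each genotype is 1 library, and leaving out a replicate would leave a genotype empty. Depth limits Tmem119 and Trem2 most, with fewer than 100 UMIs per library each in microglia-like cells.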
